A study of Mus musculus with 5 samples.

Results

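The genes described here are 9 genes of the B cell receptor and the B lineage, measured in whole livers of mice given CSF1-Fc or PBS, out of 18820 genes measured by name. They were taken by name and fall into 2 sets. The first set holds 7 genes whose expression is largely restricted to B cells: *Cd79a*, *Cd79b*, *Ms4a1*, *Cr2*, *Blk*, *Pax5* and *Pou2af1*. The other set holds *Cd72* and *Blnk*, which macrophages and their relatives also express. All 9 genes had 1 row on the Affymetrix Mouse Gene 1.1 ST array. Each array carried liver RNA of 1 adult C57BL/6 mouse, for which the labels name no transgene: 2 mice received PBS and 3 received CSF1-Fc, as subcutaneous injections given on each of 4 days with sacrifice on day 5. CSF1-Fc is pig macrophage colony-stimulating factor, the growth factor of macrophages, joined to the hinge-CH3 region of a pig immunoglobulin G. Values are log2 of the authors' normalized intensities. They were compared with limma, a linear model with moderated variance fitted to all 35556 rows, and a gene was called when its Benjamini-Hochberg adjusted p was under 0.05. Per the study's methods, tissue kept in RNAlater came from mice that were not perfused. In whole liver, more cells of a type and more RNA per cell cannot be told apart.

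B cells recognise antigen through membrane immunoglobulin, which signals by way of the paired chains CD79A and CD79B. Kinases of the Src family and SYK phosphorylate these chains, the adaptor BLNK brings BTK and phospholipase C gamma 2 to the receptor, and co-receptors such as CR2 strengthen the signal while CD72 restrains it. The transcription factor PAX5 holds B cells to their lineage, and POU2AF1 is the coactivator of octamer-binding factors at immunoglobulin and other B cell promoters. B cells are a minority of the cells in liver, where the resident phagocytes are Kupffer cells.

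Promoter sequences of 6 of the 9 genes were found in RefSeq (build GRCm38.p6), as windows of 300 bases that end 50 bases after the start of transcription. 3 motifs were searched on both strands: the octamer ATGCAAAT, to which factors assisted by POU2AF1 bind, the palindrome bound by the early B cell factor EBF, and GAGGAAGT, bound by the myeloid and B cell factor PU.1. The octamer was found in *Blnk* and in 1.74% of all 32851 promoters. The PU.1 letters were found in *Cd72* and in 3.20% of all promoters, and the EBF motif in 0 of the 6 genes and in 0.904% of all promoters. The 250 bases before the start are given for *Cd79a*, a chain of the receptor that rose, and for *Cd72* and *Blnk*, the pair shared with myeloid cells, with a match in capitals; *Cd79a* held none. The first base of the match lies 49 bases before the start in *Cd72* and 130 bases before it in *Blnk*, and both are the reverse complement of the motif.
*Cd79a*, chr7:24897247-24897496, plus strand: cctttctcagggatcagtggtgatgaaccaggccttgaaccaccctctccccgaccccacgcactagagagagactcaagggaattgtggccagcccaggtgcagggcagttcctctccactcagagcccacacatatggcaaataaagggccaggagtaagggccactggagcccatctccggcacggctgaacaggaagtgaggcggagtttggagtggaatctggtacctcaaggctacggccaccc
*Cd72*, chr4:43454627-43454876, minus strand: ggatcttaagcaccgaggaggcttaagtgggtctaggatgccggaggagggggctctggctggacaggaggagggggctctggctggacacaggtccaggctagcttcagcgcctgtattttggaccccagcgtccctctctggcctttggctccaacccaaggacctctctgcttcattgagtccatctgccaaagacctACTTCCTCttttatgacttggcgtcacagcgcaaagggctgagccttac
*Blnk*, chr19:40994222-40994471, minus strand: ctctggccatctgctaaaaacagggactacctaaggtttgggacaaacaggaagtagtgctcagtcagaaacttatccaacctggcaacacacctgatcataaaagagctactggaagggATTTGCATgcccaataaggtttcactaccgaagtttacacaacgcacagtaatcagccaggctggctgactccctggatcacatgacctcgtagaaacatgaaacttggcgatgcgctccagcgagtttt
A match of letters is a description of the sequence and not a measured binding site.

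The question here was how transcripts of the B lineage in liver differed between mice given CSF1-Fc, the treatment under study, and mice given PBS. After CSF1-Fc 4 of the 9 genes were called higher and 0 lower, and 5 missed the threshold. This is 44.4% higher, where 8.34% of all genes were called higher and 3.95% lower. The genes that rose were *Cd72*, *Cd79b*, *Cd79a* and *Ms4a1*, with folds of 9.54, 3.72, 2.99 and 2.21. The 2 sets did not separate by their change, since the restricted set held 3 of the rises and *Blnk* of the shared set did not pass. In 6 of the 9 genes (66.7%) all 3 CSF1-Fc livers lay above both PBS livers, as in 18.2% of all genes, and in 0 genes did all 3 lie below, as in 29.3% of all genes. The median log2 fold change was 0.46 over the 9 genes and -0.08 over all genes. The 9 genes were chosen with results of these data known.

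**Figure D1:**
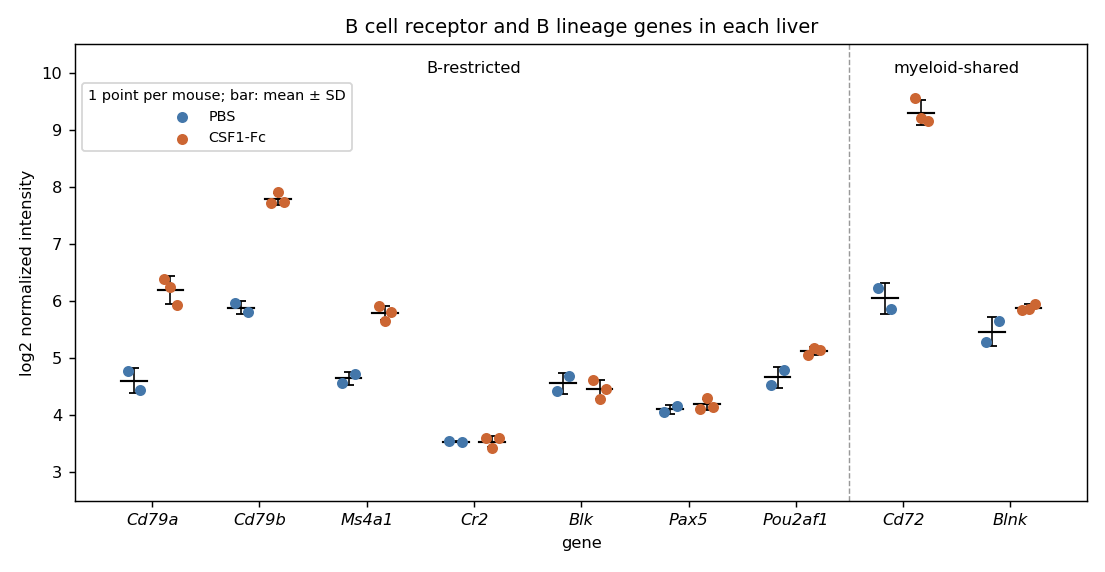
Log2 normalized intensity of each gene (vertical axis) in each liver, 1 point per mouse, with the mean and SD of 2 PBS and 3 CSF1-Fc mice. The groups lie apart for *Cd79a*, *Cd79b*, *Ms4a1* and *Cd72*, lie close for *Pou2af1* and *Blnk*, and overlap for *Cr2*, *Blk* and *Pax5*; heights of different genes are not comparable.

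Both signalling chains of the receptor rose. *Cd79b* had log2 intensities of 5.97 and 5.80 in the PBS livers and of 7.71, 7.90 and 7.73 in the CSF1-Fc livers. The lowest CSF1-Fc liver was 1.74 log2 units above the highest PBS liver. The log2 fold change was 1.89 (standard error 0.14, 95% interval 1.57 to 2.22, adjusted p = 0.00059). *Cd79a* stood at 4.77 and 4.45 in the PBS livers and at 6.39, 6.25 and 5.92 in the CSF1-Fc livers. The groups were again apart, by 1.16 log2 units, with more spread within each group than for *Cd79b*. The log2 fold change of *Cd79a* was 1.58 (standard error 0.19, 95% interval 1.12 to 2.04, adjusted p = 0.00412). The intervals of the paired chains overlap, and the difference between their changes was not tested. Without moderation of the variance the adjusted p was 0.0397 for *Cd79b* and 0.0976 for *Cd79a*.

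*Ms4a1*, which encodes the B cell surface protein CD20, also rose. Its log2 intensities were 4.56 and 4.73 in the PBS livers and 5.91, 5.66 and 5.80 in the CSF1-Fc livers, so that the groups were 0.93 log2 units apart. The log2 fold change was 1.15 (standard error 0.14, 95% interval 0.80 to 1.49, adjusted p = 0.00473). This call rests on few mice: without PBS replicate 1 the log2 fold change was 1.06 with an adjusted p of 0.0544, and without moderation the adjusted p was 0.0643.

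The other surface gene and the kinase gene of the restricted set did not pass the test. *Cr2*, the receptor for complement fragments that mature B cells and follicular dendritic cells carry, was at 3.54 and 3.53 in the PBS livers and at 3.59, 3.42 and 3.59 in the CSF1-Fc livers. Its log2 fold change of -0.0012 had a 95% interval of -0.31 to 0.31 (adjusted p = 0.997). *Blk*, a Src family kinase of B cells, was at 4.43 and 4.69 in the PBS livers and at 4.62, 4.28 and 4.45 in the CSF1-Fc livers. The groups overlap for both genes, and the interval of *Blk*, -0.50 to 0.28, lies on both sides of 0 (log2 fold change -0.11, adjusted p = 0.756).

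Neither of the 2 transcriptional regulators passed the test. *Pax5* was at 4.05 and 4.16 in the PBS livers and at 4.11, 4.30 and 4.15 in the CSF1-Fc livers, with 1 CSF1-Fc liver above both PBS livers and the others between them. Its log2 fold change was 0.08 (95% interval -0.24 to 0.40, adjusted p = 0.771). *Pou2af1* was at 4.53 and 4.79 in the PBS livers and at 5.05, 5.18 and 5.14 in the CSF1-Fc livers. All 3 CSF1-Fc livers were higher, by at least 0.25 log2 units. The log2 fold change of *Pou2af1*, 0.46 (standard error 0.14, 95% interval 0.12 to 0.80), had an unadjusted p of 0.0155 and an adjusted p of 0.109, and missed the threshold. *Pou2af1* passed it, at the same log2 fold change, when each gene was tested as the mean over its rows (adjusted p = 0.0449), and also when arrays were centred on hepatocyte transcripts (0.73, adjusted p = 0.0396), a scaling that moved the median of all genes to 0.19.

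**Figure D2:**
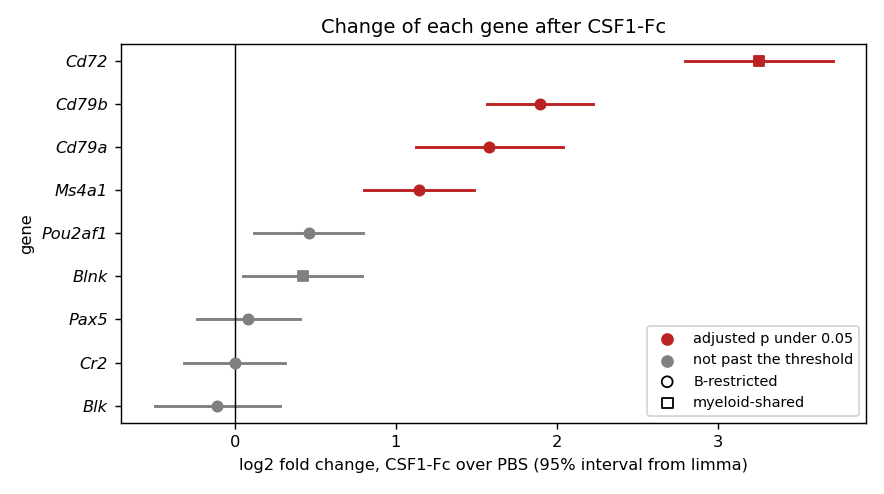
Log2 fold change of each gene, CSF1-Fc over PBS (horizontal axis), with its 95% interval from limma; circles are B-restricted genes, squares are shared with myeloid cells, and red marks an adjusted p under 0.05. *Cd72* lies farthest to the right at 3.25, and the intervals of *Pax5*, *Cr2* and *Blk* include 0.

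The largest change among the 9 genes was that of *Cd72*. This C-type lectin, a co-receptor that restrains B cell receptor signals, was at 6.23 and 5.86 in the PBS livers and at 9.55, 9.20 and 9.15 in the CSF1-Fc livers. The gap between the groups was 2.91 log2 units, against a difference of 0.38 between the PBS livers. The log2 fold change was 3.25 (standard error 0.19, 95% interval 2.80 to 3.71, adjusted p = 0.000421), and 0.314% of all genes had a larger rise. *Blnk*, the adaptor downstream of the receptor, was at 5.28 and 5.64 in the PBS livers and at 5.84, 5.86 and 5.95 in the CSF1-Fc livers. The CSF1-Fc livers were all higher and close together, while the PBS livers differed from each other by 0.36 log2 units, more than the 0.20 that parted the groups. The log2 fold change of *Blnk*, 0.42 (standard error 0.15, 95% interval 0.05 to 0.79), had an unadjusted p of 0.0307 and an adjusted p of 0.162. Centred on hepatocyte transcripts it was 0.69 with an adjusted p of 0.0459.

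How dim these genes were bears on the size of the folds. The table gives no detection calls, so the rows of 1157 olfactory and vomeronasal receptor genes, which liver is not known to use, served as a scale of dim values. Their mean log2 intensity had a median of 2.98 and a 99th percentile of 4.72. In PBS livers 6 of the 7 restricted genes lay under that percentile, all but *Cd79b*. *Cr2* was the dimmest, and 21.5% of the receptor genes were at least as bright in PBS livers, beside 5.96% for *Pax5* and 1.82% for *Cd79a*. After CSF1-Fc 3 genes remained under the percentile, namely *Cr2*, *Blk* and *Pax5*, while 0% of the receptor genes reached *Cd79a*, *Cd79b*, *Ms4a1*, *Cd72* or *Blnk*. Whether *Cr2*, *Blk* and *Pax5* are expressed in these livers cannot be read from such values, and the folds of *Cd79a* and *Ms4a1* start from a level near that of dim rows.

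**Figure D3:**
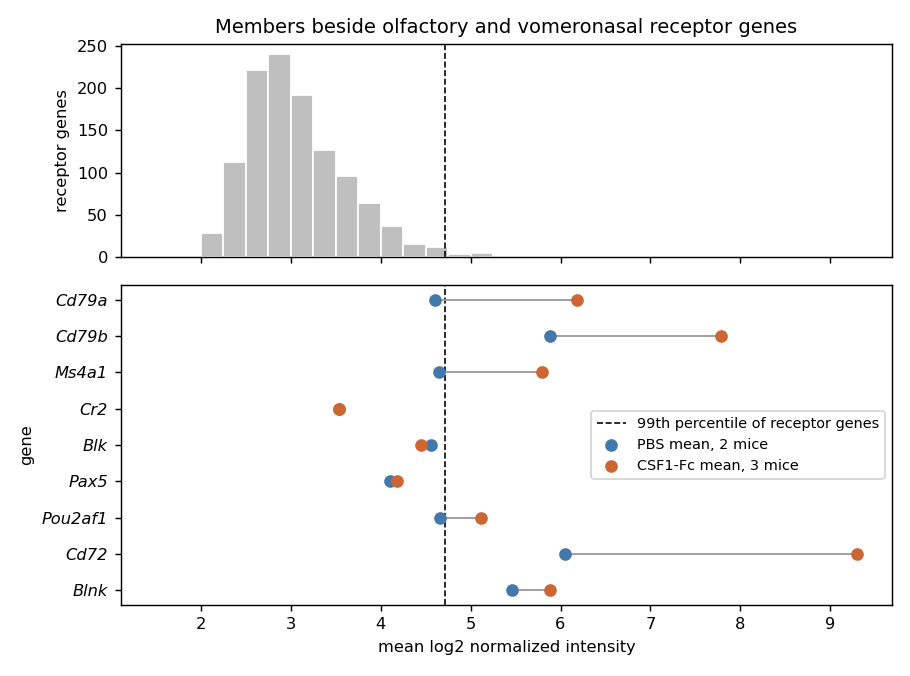
Upper panel, number of olfactory and vomeronasal receptor genes by mean log2 normalized intensity over 5 arrays. Lower panel, mean log2 intensity of each gene in 2 PBS and 3 CSF1-Fc livers on the same horizontal axis; the dashed line is the 99th percentile of the receptor genes, 4.72, and *Cr2*, *Blk* and *Pax5* stay to its left in both groups.

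Other genes of mature B cells also divided into those that rose and those that did not pass. Among 25 with a row of their own, 12 passed as higher and 0 as lower, beside 8.34% and 3.95% of all genes. The median log2 fold change was 0.74. In 19 of the 25 all CSF1-Fc livers lay above the PBS livers and in 3 all lay below, beside 18.2% and 29.3% of all genes. The list was not split, and it holds genes that macrophages also express. The largest rises were those of *Cd180* (3.16), *Ly86* (2.95), *Bank1* (2.90) and *Cd40* (1.79). The proteins of *Cd180* and *Ly86* form a surface complex of B cells and macrophages, BANK1 is a scaffold of B cell receptor signalling, and CD40 is carried by B cells, dendritic cells and macrophages. Further genes closely tied to B cells were picked after their values were seen. The receptor-like *Fcrl1* was at 1.37 (adjusted p = 0.00263), *Fcmr*, the receptor for immunoglobulin M, at 0.81 (0.0123), and *Tnfrsf13b*, the receptor TACI, at 0.74 (0.0179). *Cd22*, an inhibitory lectin of B cells, was at 0.43 (adjusted p = 0.305), and the lineage factor *Ebf1* at -0.01 (0.982). *Fcer2a*, the B cell receptor for immunoglobulin E, was at 0.78 (0.0675). It was called with quantile normalization, with arrays centred on their median or on hepatocyte transcripts, and with only rows of 1 symbol. Means over rows, array weights and leaving out CSF1-Fc replicate 2 also gave a call (adjusted p 0.0086 to 0.0447 over these settings). The count of 12 fell to 7 without PBS replicate 2, to 8 without PBS replicate 1 and to 8 without CSF1-Fc replicate 1, and the calls of *Fcmr* and *Tnfrsf13b* were lost in each of these. Without moderation the count was 3, and with a replicate block 9. It was 13 with quantile normalization, either centring, only rows of 1 symbol or means over rows, and 15 with array weights.

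The genes of immunoglobulin constant and joining chains did not pass the test with all arrays and rows. Of 5 such genes, 0 were called by limma, 1 had an unadjusted p under 0.05, and the median log2 fold change was 0.29. *Ighm*, the heavy chain of the receptor on naive B cells, was at 4.56 and 4.64 in the PBS livers and at 4.68, 4.63 and 4.94 in the CSF1-Fc livers. The groups overlap, and the log2 fold change of 0.15 had a 95% interval of -0.21 to 0.50 (adjusted p = 0.627). In PBS livers *Ighm* (mean 4.60) and *Igha* (4.11) lay under 4.72, the 99th percentile of the olfactory and vomeronasal receptor genes. The CSF1-Fc mean of *Ighm*, 4.75, was close to it. Whether *Ighm* is expressed in these livers, or changed, cannot be read from such values. The light chain gene *Igkc* was at 4.90 and 4.71 against 5.49, 5.49 and 5.27, a log2 fold change of 0.61 (adjusted p = 0.0517). All 3 CSF1-Fc livers lay above both PBS livers, and *Igkc* was called higher without CSF1-Fc replicate 3 (0.69, adjusted p = 0.0419), with arrays centred on hepatocyte transcripts (0.88, 0.0343), with array weights (0.67, 0.00928), and at 0.61 with dim rows removed (0.0351), with only rows of 1 symbol (0.0166) and with means over rows (0.0139). *Igha*, *Jchain* and *Ighg3* were at 0.36, 0.29 and 0.28. Dimmer rows of the same genes were at 0.63 and 0.12 for *Igha*, 0.03 for *Ighm* and -0.02 for *Ighg3*. None of these rows was called. In the *Igha* row at 0.63 all CSF1-Fc livers lay above the PBS livers (limma, adjusted p = 0.104). A set of 14 variable region genes with a row of their own was added after values were seen, and no test result is given for it. In 7 of the 14 all CSF1-Fc livers lay above the PBS livers, and in 0 all lay below. Over all genes these shares were 18.2% and 29.3%. The log2 fold changes of the 14 genes ran from -0.18 to 1.40 with a median of 0.27, beside -0.08 over all genes. Most of the 14 had PBS means under 4.72, and the largest rise started from a PBS mean of 2.86.

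For genes that mark the beginning and the end of the lineage, the share called was near the 8.34% of all genes called higher. Of 11 genes of B cell precursors, 1 was higher and 0 were lower, and the one that rose was *Cd93* at 1.44 (adjusted p = 0.0031), which endothelial cells and monocytes also express. The median of the list was 0.02. Of 10 plasma cell genes, 1 was higher and 0 were lower, with a median of 0.06. The gene that rose was *Irf4*, a factor of plasma cells, activated lymphocytes and some myeloid cells, at 1.21 (adjusted p = 0.0207), and its call was lost without any 1 of PBS replicate 1 (0.135), PBS replicate 2 (0.0996) and CSF1-Fc replicate 1 (0.0838). *Fkbp11*, a chaperone gene of secretory cells, was at 1.00 and not called, and at 1.22 without CSF1-Fc replicate 3 (adjusted p = 0.0197). It was also called with a replicate block and with dim rows removed (0.0250 and 0.0372). Hepatocyte centring, only rows of 1 symbol, means over rows and array weights called it too (0.00852 to 0.0328). Under these, *Prdm1* (0.57 in the first fit) was called as well, making 3 of 10. Genes called higher over all genes then numbered 2017 to 2313, against 1570. In PBS livers 8 of the 11 precursor genes and 5 of the 10 plasma cell genes lay under the 99th percentile of the receptor genes.

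Downstream of the receptor, many genes that B cells share with myeloid cells rose. Of 18 such genes 13 passed as higher and 0 as lower, beside 8.34% and 3.95% of all genes. The median log2 fold change was 2.23, beside -0.08 over all genes. The mean log2 intensity over the 5 arrays was 5 or more in 18 of these 18 genes. It was so in 3 of the 7 restricted genes, the 3 that were called. That mean includes the rise itself, and *Cd79a* and *Ms4a1* had PBS means of 4.61 and 4.64. The match with the calls is thus partly built in. The largest rises were those of *Btk* at 3.08, *Vav1* at 2.88, *Plcg2* at 2.74 and *Lcp2* at 2.64, each with an adjusted p of 0.000615 or lower. *Btk*, at 4.25 in PBS livers, started under the 99th percentile of the receptor genes, so that its fold has a dim base. *Btk* encodes the kinase and *Plcg2* the phospholipase that BLNK brings together, and *Vav1* and *Lcp2* encode an exchange factor and an adaptor of leukocyte receptors. *Syk*, which acts between the CD79 chains and BLNK, was at 2.08 (adjusted p = 0.000786). *Blnk*, with a log2 fold change of 0.42, had a smaller value than *Syk*, *Btk* and *Plcg2*, and these differences were not tested. The inhibitory Fc receptor gene *Fcgr2b* was at -0.06 (95% interval -0.36 to 0.23, adjusted p = 0.822). Without moderation 7 of the 18 genes were called.

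**Figure D4:**
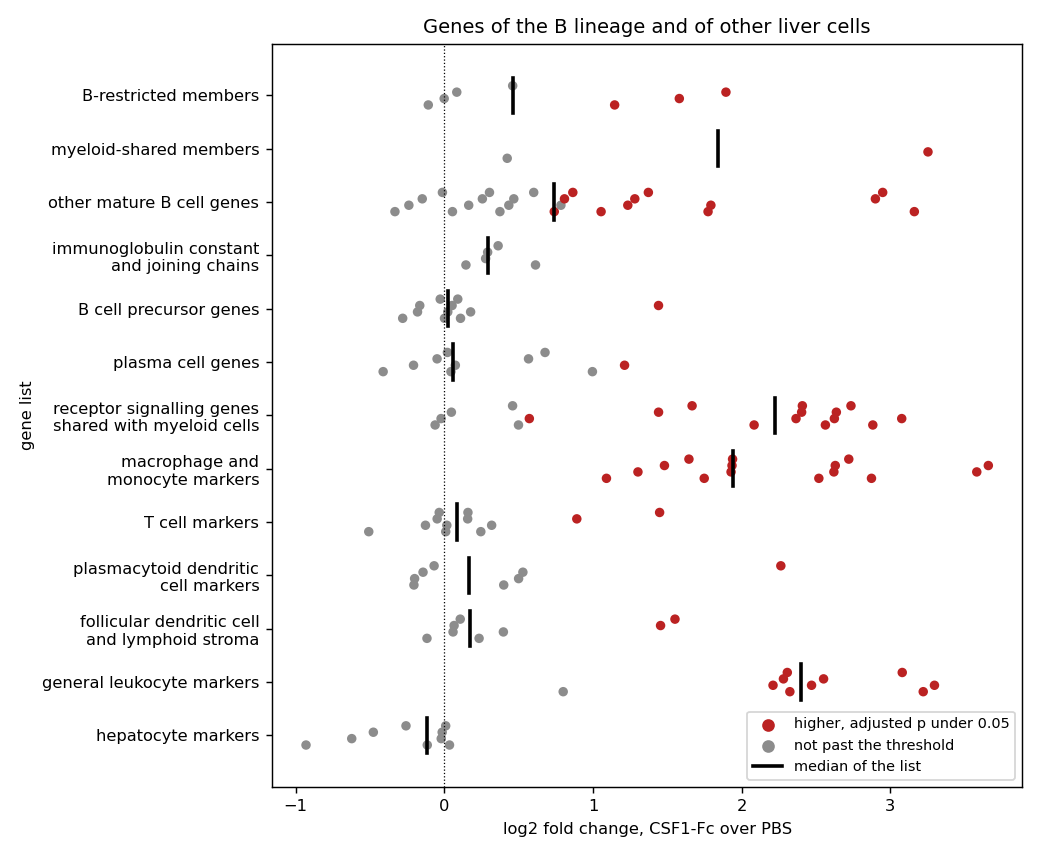
Log2 fold change, CSF1-Fc over PBS (horizontal axis), of each measured gene in 13 gene lists, with the median of each list as a black bar; red points were higher at an adjusted p under 0.05. Restricted B cell genes spread from -0.11 to 1.89, and all 15 macrophage and monocyte markers are red.

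Markers of other cells moved in the same livers, and their part in the rises above was not tested. Over all genes 8.34% were called higher and 3.95% lower, the shares to hold beside the counts that follow. Of 15 macrophage and monocyte markers, 15 were higher, with log2 fold changes from 1.09 to 3.66 and a median of 1.94. The largest rises were those of *Fcgr1* (3.66), *Ccr2* (3.58, from a PBS mean of 4.60 that is itself dim), *Cd68* (2.87) and *Timd4* (2.72), and the defining markers *Csf1r* and *Adgre1* were at 1.93 and 2.62. Without moderation 5 of the 15 were called. The log2 of their summed intensity was 12.60 and 12.54 in the PBS livers and 14.56 to 14.62 in the CSF1-Fc livers. For the 7 restricted B cell genes the same sum was 7.54 and 7.55 against 8.70 to 8.82. Such a sum weighs the brightest genes of a list most, among the 7 *Cd79b*. The change of *Cd72*, 3.25, lies within the range of the macrophage markers. Those of *Cd79b* (1.89), *Cd79a* (1.58) and *Ms4a1* (1.15) do so too, but under the markers' median of 1.94. The changes of *Pou2af1*, *Pax5*, *Cr2*, *Blk* and *Blnk* lie under the range. General leukocyte markers were higher in 9 of 10, led by *Rac2* (3.30), *Cd52* (3.22), *Cd53* (3.08) and *Arhgdib* (2.55), with *Ptprc* at 2.21. Of 8 plasmacytoid dendritic cell markers 1 was higher, *Irf8* at 2.26, which macrophages and B cells also express, while the defining gene *Siglech* was at -0.07 and under the 99th percentile of the receptor genes in both groups. The summed level of these markers was 10.15 and 10.07 in the PBS livers and 10.81 to 11.06 in the CSF1-Fc livers on the same log2 scale. In 3 of the 8 markers all CSF1-Fc livers lay above the PBS livers, and in 3 all lay below, beside 18.2% and 29.3% of all genes. Of 12 T cell markers 2 were higher, *Cd3g* at 1.45 and *Lat* at 0.89, and *Cd3e* was at 0.25 (adjusted p = 0.293). The call of *Lat* was lost without PBS replicate 1 (0.153), PBS replicate 2 (0.0983) or CSF1-Fc replicate 1 (0.0753). *Cd4* ran the other way, at -0.51 with all CSF1-Fc livers below the PBS livers (adjusted p = 0.0763), and was called lower with quantile normalization, with only rows of 1 symbol, with means over rows and with array weights (0.0224 to 0.0463). In PBS livers 10 of the 12 lay under the 99th percentile of the receptor genes. Their summed level was 8.03 and 8.02 against 8.17 to 8.34. Of 8 genes of follicular dendritic cells and lymphoid stroma 2 were higher, the adhesion molecule gene *Vcam1* at 1.55 and *Cxcl13*, which encodes a chemokine that attracts B cells, at 1.45 (adjusted p = 0.0175). The call of *Cxcl13* was lost without PBS replicate 1 (0.0863), PBS replicate 2 (0.134) or CSF1-Fc replicate 1 (0.0777), and *Tnfsf13b*, the B cell survival factor BAFF, was at 0.07 (adjusted p = 0.875). Hepatocyte markers were bright, with *Alb* at 13.22 in PBS and 13.26 in CSF1-Fc livers, and 0 of 9 were called by limma, with 3 lower at an unadjusted p under 0.05. *Tat*, *Cps1*, *Hnf4a* and *Apob* were at -0.93, -0.62, -0.48 and -0.26, each with all CSF1-Fc livers below the PBS livers (adjusted p 0.114 to 0.299). Of these, *Tat* was called lower with only rows of 1 symbol, *Tat* and *Hnf4a* with means over rows, *Tat*, *Cps1* and *Hnf4a* with array weights, and *Cps1* without CSF1-Fc replicate 3 (-0.81, adjusted p = 0.0317).

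The mean profile of the 7 restricted genes over the 5 arrays was most like those of *Akt1*, *Bub3*, *Tonsl*, *Mexis* and *Tcf3*, with root mean square differences of 0.031 to 0.036 log2 units after each gene was centred. That of *Cd72* and *Blnk* together was most like those of *Lipo3*, *Lmo2*, *Clec4f*, *Mob3a* and *Slc40a1*, at 0.046 to 0.074. Likeness over 5 arrays of 2 groups mostly restates the difference between the groups, and it averages genes that rose with genes that did not.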

How the data were processed

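Liver RNA was amplified, labelled and hybridized by the authors to Affymetrix Mouse Gene 1.1 ST arrays, 1 per mouse, and normalized intensities were deposited as linear values (array medians 31.1 to 33.0). Quality control used Affymetrix Expression Console 1.1 per the submitters' processing notes. How the arrays were normalized was not given in the sources used here. Log2 values were taken with no pseudocount or filter and fitted in R 4.3.3 by lmFit and eBayes of limma 3.58.1 with a mean for each group, with Benjamini-Hochberg adjustment over 35556 rows; residual degrees of freedom were 3 and prior degrees of freedom 3.34. Rows with 1 gene symbol numbered 21218, and the brightest row stood for a gene. The members and the gene lists were chosen with earlier results of these data known. Named genes were all members, preset defining markers and the 5 genes of most like pattern. From each other list they were the 4 genes of largest called change or, with no call, of lowest p. *Syk*, *Fcgr2b*, *Fcrl1*, *Fcmr*, *Tnfrsf13b*, *Cd22*, *Fcer2a*, *Ebf1*, *Siglech*, *Tnfsf13b*, *Cd4*, *Fkbp11* and *Prdm1* were chosen after their values were seen. Of the listed genes, 21 without a row of their own were not analysed here, and a planned search of member proteins was not run. The fit was tested on simulated data. Nothing in the labels says that mice came from separate cages or litters, so p-values measure the spread between these samples, and precision is limited by how few arrays there are. With 2 mice against 3 an exact permutation test cannot reach the threshold. Alternatives changed the scaling (quantile normalization, or arrays centred on their median or on hepatocyte markers), the rows (dim rows removed, only rows of 1 symbol, a mean over rows), the variance model (trend and robust, unmoderated, array weights with statmod 1.5.0), the samples (a replicate block, each array left out) and the threshold.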

Additional observations from a re-analysis of the deposited data

How the results depend on the processing

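The counts of B-restricted genes lower and of myeloid-shared genes lower were 0 under every alternative run, and *Cd79b* and *Cd72* were called under all 17. The count of 3 B-restricted genes higher fell to 1 without moderation, ranged from 2 to 3 with 1 array left out, and was 4, with *Pou2af1* added, under hepatocyte centring, with means over rows and at an unadjusted p under 0.05; the count of 1 myeloid-shared gene higher became 2 with arrays centred on hepatocyte markers and 2 at an unadjusted p under 0.05, and was 1 with any array left out. Centring on hepatocyte markers moved the median of all genes from -0.08 to 0.19, so the values 0.73 of *Pou2af1* and 0.69 of *Blnk* there include that shift. The direction of 2 uncalled genes turned: *Cr2*, at -0.0012, was at 0.0856 with quantile normalization, 0.0086 centred on the array median, 0.2652 centred on hepatocyte markers and 0.0414 with array weights, and *Blk*, at -0.11, was at 0.1583 centred on hepatocyte markers and 0.0162 with array weights. With 1 array left out *Cr2* ranged from -0.0308 to 0.0572, turning when either PBS replicate 1 (0.0075) or the second CSF1-Fc array was dropped, and *Blk* from -0.2392 to 0.0231, turning without PBS replicate 2. With the replicate number as a block the counts were 3 and 1, the same calls as without it. Only a CSF1-Fc array bears number 3, so the block gave the fold changes of the fit without CSF1-Fc replicate 3. The deviations of same-numbered arrays correlated at -0.07 for number 1 and -0.25 for number 2. The deviations of 2 PBS arrays mirror each other, so these are not 2 separate checks. The numbers are not taken to pair the mice. Genes called higher numbered 1570 and lower 743, against 419 and 92 without moderation and 2313 and 2231 with array weights. *Blk*, *Pax5*, *Cr2* and *Pou2af1* could not be tested under the filter on dim rows. The causes of these differences were not tested.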
